A study of Mus musculus with 18 samples.

Results

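The genes described here are 9 components of leukemia inhibitory factor (LIF) and gp130-STAT3 signaling, out of 78239 genes counted in both experiments of the study. They were taken as a list of gene names, *Lif*, *Cntf*, *Lifr*, *Il6st*, *Osmr*, *Jak1*, *Jak2*, *Stat3* and *Socs3*, which was drawn up with earlier results of these data known. LIF and ciliary neurotrophic factor (CNTF) are cytokines of the interleukin-6 family. They bind receptor complexes that contain the shared signal transducer gp130, which is encoded by *Il6st*, and the bound receptors activate Janus kinases that phosphorylate the transcription factor STAT3. STAT3 induces *Socs3*, whose product inhibits the same receptors and kinases. In the injured retina, LIF is known to be made by Müller glia and to act on photoreceptors and glia as a protective factor.

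RNA was sequenced from whole retinas of mice at 3 weeks post injection (wpi) and from 661W cells at 20 h after transfection. The mice had received subretinal injections between postnatal days 29 and 32. The retinal groups were 5 AAV::*nsHif1a* and 5 AAV::eGFP libraries, and the cell groups were 4 libraries each with *nsHif1a* or eGFP. *nsHif1a* encodes a Myc-tagged mouse HIF1A with amino acid changes that keep the protein stable and active in normoxia, and eGFP is the control transgene. In the retina both transgenes were carried by the same AAV vector and driven by a mouse opsin promoter that is active in rods, and the vector reached only part of the retina. In the cells both transgenes were driven by the ubiquitous CMV promoter, but on different plasmids, an AAV plasmid with its promoter exchanged for *nsHif1a* and a pcDNA plasmid for eGFP, so that transgene and plasmid cannot be told apart there. No hypoxia was applied to any group. The labels give C57BL/6J for the mice, while the study's methods name 129S6. All 4 groups were thus either rod-transduced tissue or 1 transfected cell line, and 661W is a line of photoreceptor-like mouse cells that originated from a tumor.

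Total counts per library were between 12898220 and 17809585, and 3 counts in a library corresponded to 0.168 to 0.233 CPM, which is the count of a gene relative to the scaled total of its library. The transcript of the targeted gene was compared first. *Hif1a*, counted together with the transgene, was between 1222 and 1954 CPM in the *nsHif1a* cells and between 150 and 164 CPM in the eGFP cells, a log2FC of 3.26 (SE 0.13, limma adjusted p = 1.2e-05). In the retina it was between 642 and 729 CPM with AAV::*nsHif1a* and between 638 and 698 CPM with AAV::eGFP, a log2FC of 0.05 (SE 0.04, limma adjusted p = 0.504), so the retinal *Hif1a* counts do not tell the groups apart. The 9 rod markers in the list summed to between 45592 and 50466 CPM in the AAV::eGFP retinas but to between 13.4 and 18.2 CPM in the 661W cells. The 9 cone markers summed to between 2.10 and 5.27 CPM in the cells, with *Opn1mw* at 0 in the eGFP group and *Arr3* at 0 in the *nsHif1a* group.

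Libraries within a group differed in ways that touch the results below. All 5 AAV::*nsHif1a* libraries and AAV::eGFP libraries 1 and 2 had between 19492 and 28595 counts of *Xist*, the transcript of the inactive X chromosome, whereas AAV::eGFP libraries 3, 4 and 5 had 2, 1 and 3 counts. These 2 levels are called the *Xist* class below, and the first is called with *Xist*. The summed level of 10 lens markers was between 1032 and 3839 CPM with AAV::eGFP and between 1141 and 20999 CPM with AAV::*nsHif1a*. In the cells, replicates 1 and 2 of each group resembled each other, as did replicates 3 and 4. The median squared deviation between them was 1.47 to 1.62 times what counting alone gives, and for all other pairs within a cell group it was 3.83 to 9.10 times, and no library was identical to another. Because no label says that the libraries came from separate cultures, the p-values in the cells measure the spread between these libraries only, which may be technical.

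Levels per length were compared as RPKM, CPM divided by the exon length in kilobases. In the AAV::eGFP retina, the kinase gene *Jak1* was the highest at 14.5 ± 0.388 RPKM (SD, n = 5). It was followed by *Il6st* at 9.70 ± 0.674 RPKM, *Stat3* at 9.01 ± 1.39 RPKM and *Jak2* at 8.45 ± 0.472 RPKM (SD, n = 5), and the ranges of these 3 neighbors overlapped from each gene to the next. *Lifr*, which encodes the LIF-binding receptor chain, was at 5.90 ± 0.287 RPKM, *Socs3* at 2.04 ± 0.687 RPKM and *Osmr*, which encodes the oncostatin M receptor, at 1.32 ± 0.402 RPKM (SD, n = 5). The ranges of *Socs3* and *Osmr* overlapped. *Lif* itself was at 0.282 ± 0.0624 RPKM (SD, n = 5), below the range of each receptor, and *Cntf* was the lowest at 0.0283 ± 0.0262 RPKM (SD, n = 5). The control retina thus held the receptor chains, kinases and *Stat3* at well above the level of either ligand.

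**Figure D1:**
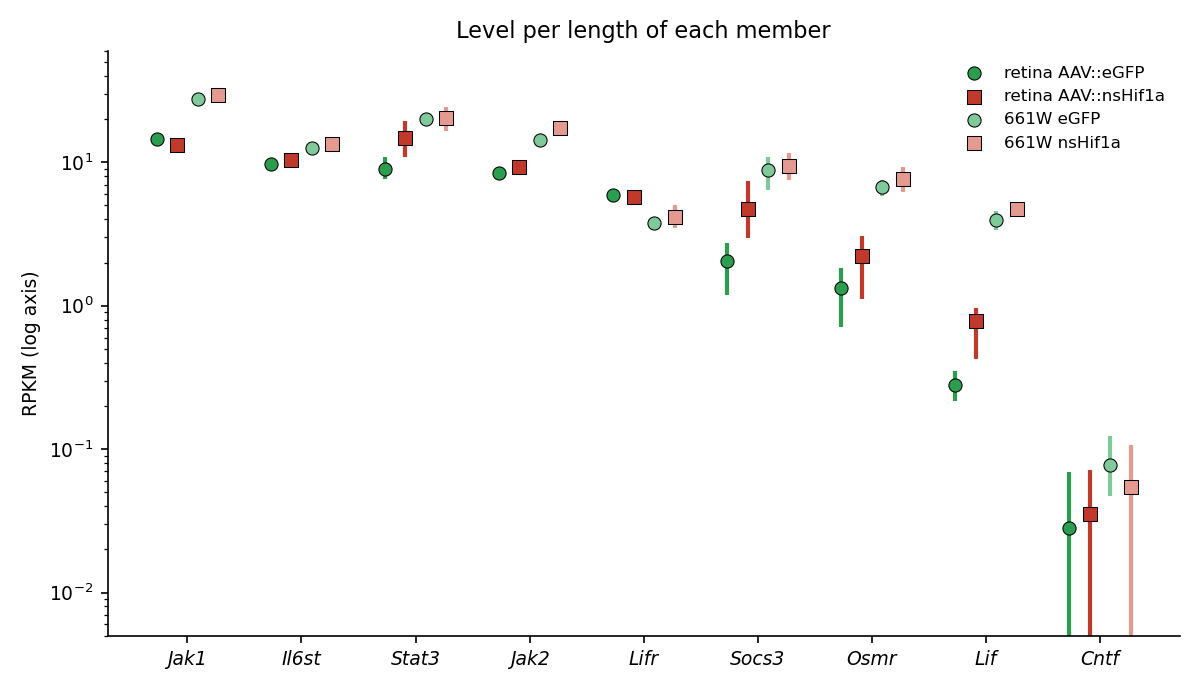
Level of each of the 9 genes per length of exon (RPKM, log axis) in the 4 groups; symbols are group means, bars span the lowest to the highest library, and bars of *Cntf* that reach the bottom edge include libraries with 0 counts. *Lif* and *Cntf* were the lowest genes in the retina, and *Lif*, *Osmr* and *Socs3* were higher in the cells than in the retina.

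In GRCm39, *Lif* occupies chr11:4207557-4222514 on the plus strand. *Stat3* (chr11:100775924-100830450) and *Socs3* (chr11:117856905-117860898) lie on the opposite strand of this chromosome. The bases before the annotated start of each of these 3 genes are shown because they were the genes called higher in the AAV::*nsHif1a* retina, as described below. The letters ACGTG, a form of the core of the site bound by HIF1, and TTCNNNGAA, a pattern of STAT sites, were searched. The search covered both strands of the 250 bases before the start, and matches are in capitals. GCGTG, the other form of the core, was not searched. The first 3 stretches below leave out bases that belong to an exon of another transcript of the same gene, whereas the last, a short site, lies within such an exon.
Lif, chr11:4207307-4207556, plus strand: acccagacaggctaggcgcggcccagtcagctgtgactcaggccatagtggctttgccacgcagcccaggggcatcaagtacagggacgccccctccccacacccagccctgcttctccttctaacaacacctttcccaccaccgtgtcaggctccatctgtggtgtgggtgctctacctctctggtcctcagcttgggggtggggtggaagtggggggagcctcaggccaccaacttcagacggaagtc
Stat3, chr11:100830451-100830677, minus strand: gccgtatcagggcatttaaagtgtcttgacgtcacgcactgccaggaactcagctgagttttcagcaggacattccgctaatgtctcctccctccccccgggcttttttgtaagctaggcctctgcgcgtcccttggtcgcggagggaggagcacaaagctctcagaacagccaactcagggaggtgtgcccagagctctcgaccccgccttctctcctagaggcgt
Socs3, chr11:117860124-117860200, minus strand: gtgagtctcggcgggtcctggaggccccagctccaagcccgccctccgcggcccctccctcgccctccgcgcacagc
Socs3, site of 29 bases, chr11:117860328-117860356, minus strand: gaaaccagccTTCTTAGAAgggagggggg

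ACGTG was in none of these 3 windows, but without a search for GCGTG they are not shown to lack a HIF1 core. TTCNNNGAA was in the window of *Socs3* alone. Its first base lay 223 bases before the start, within an exon of another *Socs3* transcript. Among the other members, *Jak2* held ACGTG 2 times and TTCNNNGAA 1 time, and *Osmr* held ACGTG 1 time, beginning 6 bases before its start. Of 21757 protein-coding promoters of the same length, 17% held ACGTG and 7.7% held TTCNNNGAA, so 2 of 9 members holding each motif is a description. The letters are not evidence of binding.

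The first comparison asked whether these genes differed between AAV::*nsHif1a* and AAV::eGFP retinas. *Lif*, *Stat3* and *Socs3* rose with AAV::*nsHif1a*, and the other 5 members that could be tested were not called. A gene was called at an adjusted p under 0.05 (Benjamini-Hochberg over 18859 genes, limma) and an absolute log2FC above 0.5. By this rule 3 of 8 tested members were called higher, whereas 1.08% of all tested genes were called higher and 1.99% in either direction. The median log2FC of the 8 members was 0.40, and that of all tested genes was -0.002.

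Of the ligands, *Lif* was at 1.07, 1.62, 1.24, 0.991 and 1.58 CPM in AAV::eGFP libraries 1 to 5 and at 1.95, 3.97, 4.47, 4.02 and 3.59 CPM in AAV::*nsHif1a* libraries 1 to 5. Every AAV::*nsHif1a* library was above every AAV::eGFP library, and AAV::*nsHif1a* library 1 lay closest to the controls. The log2FC of *Lif* was 1.48 (SE 0.25, 95% limits 0.93 to 2.03, limma adjusted p = 0.0058), which is 2.78-fold. These values rest on 14 to 25 counts per AAV::eGFP library and 26 to 63 counts per AAV::*nsHif1a* library. *Cntf* had 0 to 5 counts in every retinal library and did not pass the filter on low counts, so its response was not detectable at this depth. *Cntf* (chr19:12737353-12742996, minus strand) also shares 847 of its 4744 exon bases with *Gm44505* on the same strand, which leaves its count uncertain.

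Of the receptors, *Lifr* was at 77.0 to 86.7 CPM with AAV::eGFP and at 73.4 to 84.8 CPM with AAV::*nsHif1a*, a log2FC of -0.05 (95% limits -0.15 to 0.05). *Il6st* was at 140 to 162 CPM and at 150 to 175 CPM, a log2FC of 0.11 (95% limits -0.02 to 0.23). The groups overlapped for both genes, and for both the limits lay within 0.25 of 0 on the log2 scale. *Osmr* was at 8.79, 16.7, 17.5, 16.1 and 22.7 CPM in AAV::eGFP libraries 1 to 5 and at 13.7, 23.9, 27.7, 37.8 and 33.5 CPM in AAV::*nsHif1a* libraries 1 to 5. 4 of these 5 AAV::*nsHif1a* values were above every control, while library 1 lay among the controls. The log2FC of *Osmr* was 0.68 (SE 0.26, 95% limits 0.10 to 1.25), and its limma adjusted p of 0.158 missed the threshold. Without AAV::*nsHif1a* library 1 the log2FC was 0.86 (limma adjusted p = 0.0449).

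Of the kinases, *Jak1* was lower in every AAV::*nsHif1a* library, at 139 to 151 CPM, than in any AAV::eGFP library, at 152 to 162 CPM. Its log2FC was -0.14 (SE 0.03, limma adjusted p = 0.031), a difference past the p threshold, as were 5.79% of all genes, whose size lay below the fold change threshold. *Jak2* was at 49.9 to 57.2 CPM with AAV::eGFP and at 55.9 to 60.1 CPM with AAV::*nsHif1a*, a log2FC of 0.13 (SE 0.05, limma adjusted p = 0.113), and the groups overlapped.

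*Stat3* was at 83.1, 111, 77.4, 83.2 and 101 CPM in AAV::eGFP libraries 1 to 5 and at 110, 161, 142, 135 and 196 CPM in AAV::*nsHif1a* libraries 1 to 5. 4 of the AAV::*nsHif1a* libraries were above every control, and library 1 lay just below AAV::eGFP library 2. The log2FC of *Stat3* was 0.69 (SE 0.13, 95% limits 0.42 to 0.96, limma adjusted p = 0.0081). *Socs3* was at 5.73, 9.69, 6.93, 4.23 and 9.79 CPM with AAV::eGFP and at 10.5, 17.8, 13.6, 15.1 and 26.4 CPM with AAV::*nsHif1a*, in the same order of libraries. All AAV::*nsHif1a* libraries were above all controls, again with library 1 closest and library 5 highest. The log2FC of *Socs3* was 1.18 (SE 0.26, 95% limits 0.62 to 1.74, limma adjusted p = 0.0207), which is 2.26-fold. Leaving out AAV::eGFP library 4 or AAV::*nsHif1a* library 2 moved its limma adjusted p to 0.0553 and 0.0556, just outside the threshold. In all, 3 of the 8 tested members (*Lif* and *Socs3* higher, *Jak1* lower) had groups that did not overlap, and 5.94% of all tested genes did so (3.25% higher and 2.69% lower).

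**Figure D2:**
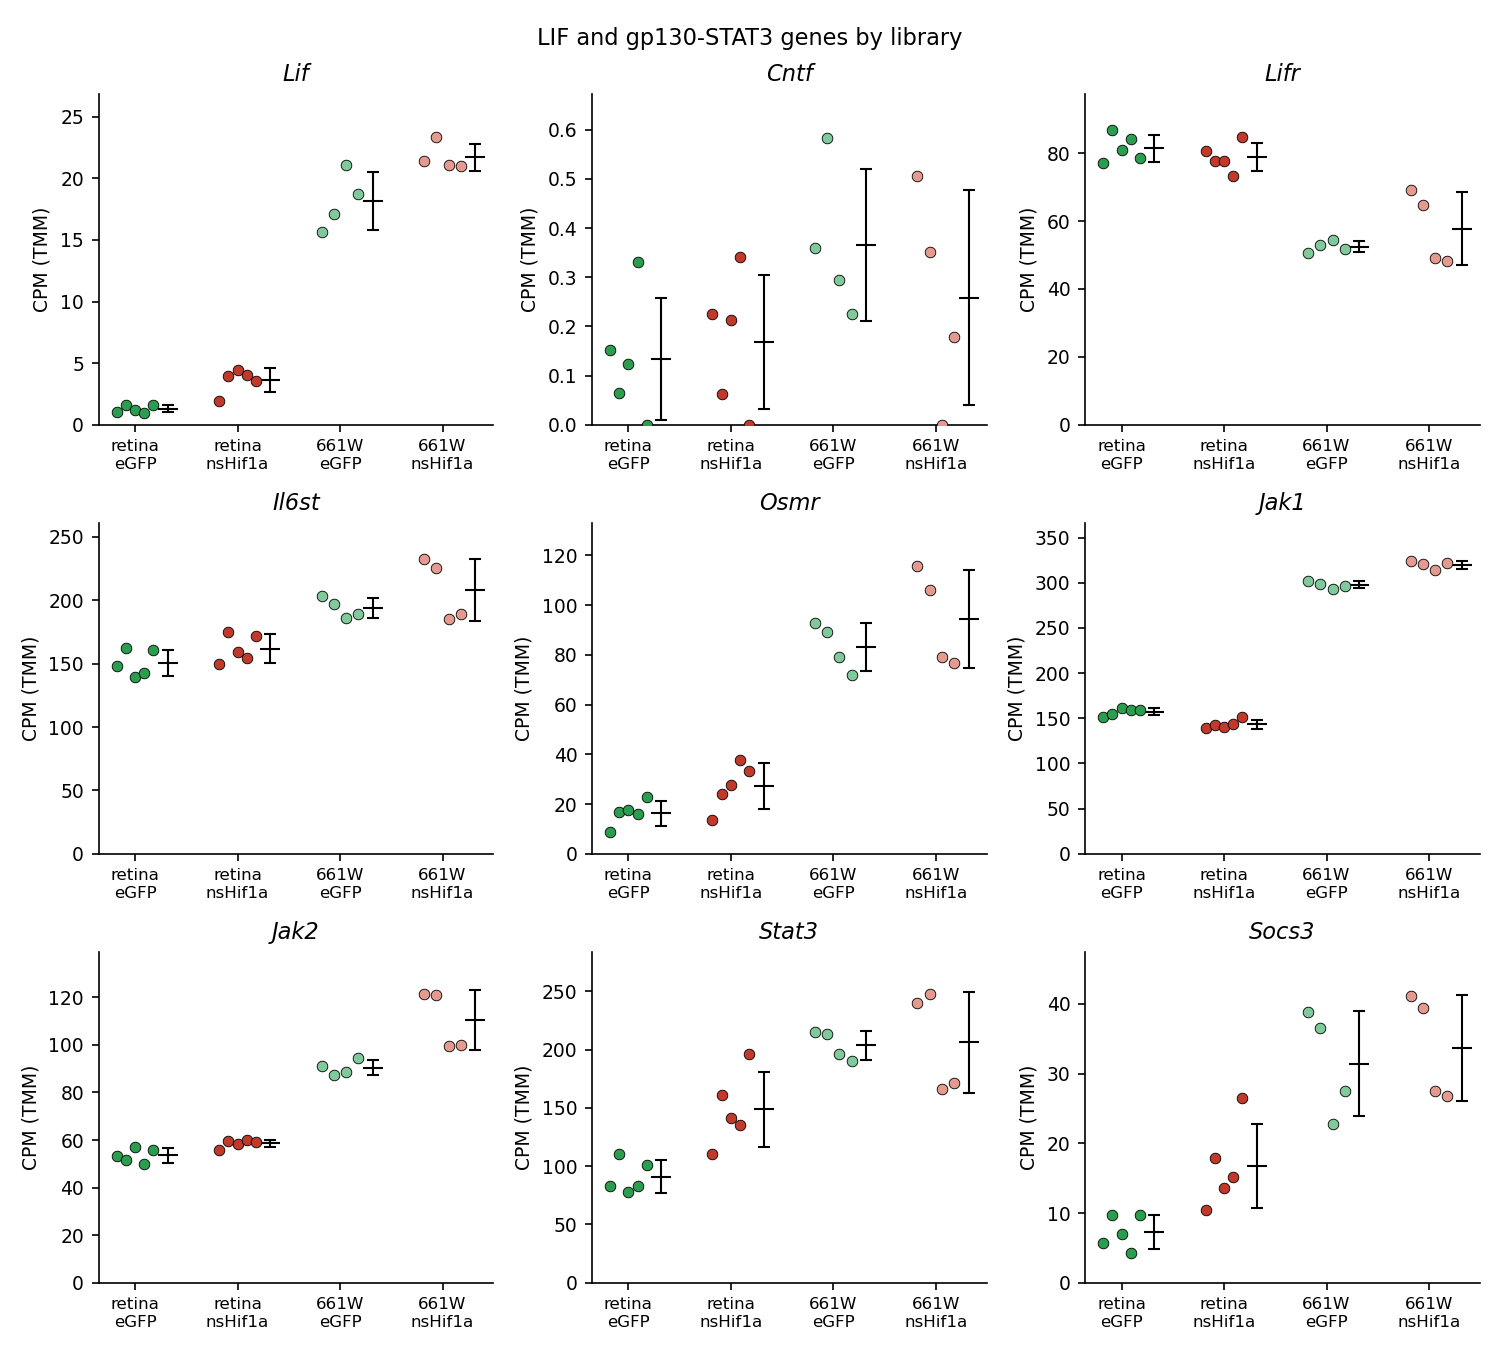
Level of each gene (CPM scaled by TMM, separately for retina and cells) in each library, with points in order of replicate number and the group mean ± SD beside them. In the retina, AAV::*nsHif1a* libraries lay above the controls for *Lif* and *Socs3*, and for *Stat3* 4 of 5 did; in the cells, *nsHif1a* replicates 1 and 2 lay above replicates 3 and 4 for *Lif*, *Lifr*, *Il6st*, *Osmr*, *Jak2*, *Stat3* and *Socs3*.

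AAV::*nsHif1a* library 1 was the lowest of its group for 7 of the 9 genes, and library 5 was the highest for 4. The 3 calls were also made without library 1, at limma adjusted p-values of 4.2e-04 for *Lif*, 0.0031 for *Stat3* and 0.0137 for *Socs3*. The *Xist* class of the libraries differed between the groups. With this class as a covariate the log2FC was 1.43 for *Lif*, 0.61 for *Stat3* and 1.06 for *Socs3*, and the limma adjusted p-values were 0.0694, 0.0844 and 0.164, so that none of the 3 was called. In the 7 libraries with *Xist* alone, 2 of them AAV::eGFP, the log2FC values were again 1.43, 0.61 and 1.06, with limma adjusted p-values of 0.120, 0.134 and 0.168. With the mean level of the γ-crystallin genes as a covariate all 3 were called, with a log2FC of 1.56 for *Lif*, 0.90 for *Stat3* and 1.57 for *Socs3*.

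**Figure D3:**
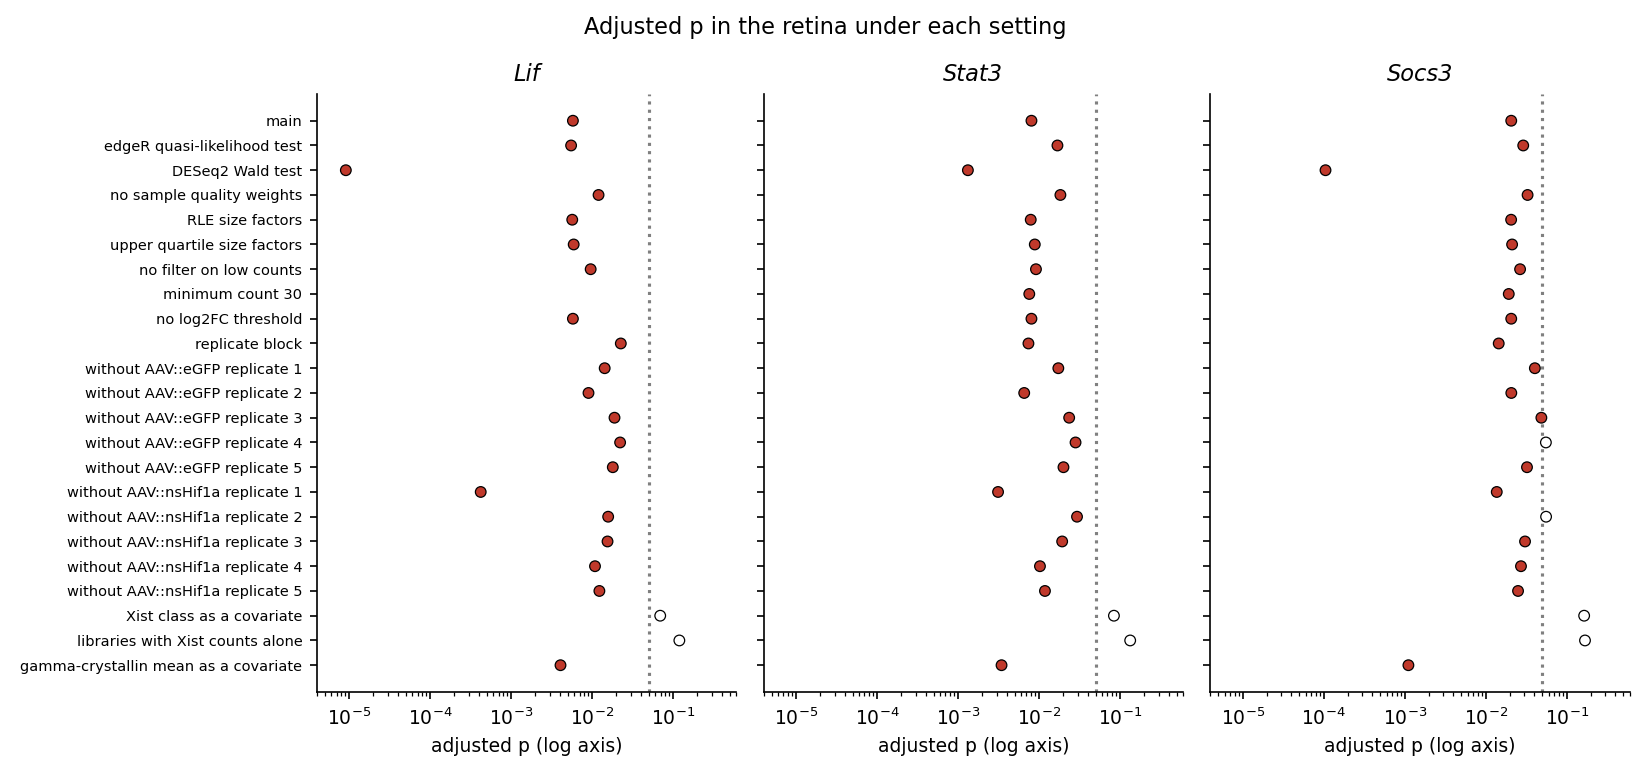
Adjusted p (log axis) of *Lif*, *Stat3* and *Socs3* in the retina under each setting; filled points are below the threshold of 0.05, marked by the dotted line, and *Lif* has no point at a minimum count of 30, where it was filtered out. Open points are at the settings that use the *Xist* class and, for *Socs3*, without AAV::eGFP replicate 4 or AAV::*nsHif1a* replicate 2.

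Because whole retinas were sequenced, a change in the number of cells of a type and a change in RNA per cell cannot be told apart. The 11 markers of microglia and macrophages were all higher in the AAV::*nsHif1a* retinas, with a median log2FC of 1.10, but 0 of them were called. Their summed level was between 32.2 and 205 CPM with AAV::eGFP and between 65.0 and 201 CPM with AAV::*nsHif1a*. Of 10 Müller glia markers, 7 were higher and 0 were called, and their sum was between 5059 and 5482 CPM and between 4753 and 5296 CPM. Of 5 astrocyte markers, 3 were higher and 0 were called, with sums between 81.3 and 134 CPM and between 101 and 196 CPM. The 9 rod markers were all lower with 0 called, 4 of them at an adjusted p under 0.05, and their sum was between 35573 and 47443 CPM with AAV::*nsHif1a*. The 7 endothelial markers were all higher with 0 called, and 1 of 7 retinal pigment epithelium markers was higher with 0 called. None of these lists had a marker at 0 in either retinal group. All 9 tested lens markers were higher with 0 called, and *Lim2*, the marker that was not tested, was at 0 in both groups. The part of these cells in the levels of *Lif*, *Stat3* and *Socs3* was not tested.

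The second comparison asked whether *nsHif1a* had the same effect in 661W cells. By the same rule, 0 of 8 tested members were called, whereas 1.27% of 15962 tested genes were (1.21% higher). With edgeR and with DESeq2, 0 members were called as well. At an unadjusted p under 0.05, 3 members passed (*Lif*, *Jak1* and *Jak2*), compared with 20.7% of all genes. All 8 log2FC values were above 0, with a median of 0.13.

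*Lif* was at 15.6, 17.1, 21.1 and 18.8 CPM in eGFP replicates 1 to 4 and at 21.4, 23.3, 21.1 and 20.97 CPM in *nsHif1a* replicates 1 to 4. The groups overlapped through eGFP replicate 3. The log2FC was 0.26 (SE 0.10, 95% limits 0.03 to 0.49, limma adjusted p = 0.191). *Jak2* was at 90.9, 87.4, 88.6 and 94.6 CPM with eGFP and at 121, 121, 99.6 and 99.8 CPM with *nsHif1a*, a log2FC of 0.29 (SE 0.07, 95% limits 0.13 to 0.45, limma adjusted p = 0.0645). *Jak1* was at 294 to 302 CPM and at 314 to 324 CPM, a log2FC of 0.10 (SE 0.03, limma adjusted p = 0.132). For both kinase genes every *nsHif1a* library was above every eGFP library, which was the case for 7.51% of all genes tested in the cells. *Cntf* had 0 to 9 counts per library and was not tested.

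*Stat3* was at 215, 213, 197 and 190 CPM in eGFP replicates 1 to 4 and at 240, 247, 166 and 172 CPM in *nsHif1a* replicates 1 to 4. The first pair of *nsHif1a* replicates was above all controls and the second pair was below them, so the log2FC of 0.02 (SE 0.12, 95% limits -0.25 to 0.29) averages opposite differences. *Socs3* was at 38.9, 36.5, 22.8 and 27.5 CPM with eGFP and at 41.1, 39.4, 27.4 and 26.8 CPM with *nsHif1a*. Its level differed by replicate pair in both groups, and its log2FC was 0.13 (SE 0.21, 95% limits -0.34 to 0.59). *Lifr* was at 50.4 to 54.4 CPM and at 48.1 to 69.0 CPM, *Il6st* at 186 to 204 CPM and at 186 to 233 CPM, and *Osmr* at 71.8 to 93.0 CPM and at 76.5 to 116 CPM. Their log2FC values were 0.13, 0.11 and 0.18, and in each case the *nsHif1a* range reached below the highest control.

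The effect of *nsHif1a* was therefore compared between replicates 3 and 4 and replicates 1 and 2, a comparison chosen after the values were seen. The spread in this fit is only that between the 2 like replicates of a pair, so its p-values do not measure a spread between cultures. For *Stat3* the log2 difference, replicates 3 and 4 minus replicates 1 and 2, was -0.38 (SE 0.05, limma adjusted p = 8.3e-06). It was -0.50 for *Lifr*, -0.31 for *Jak2*, -0.25 for *Osmr* and -0.19 for *Il6st*, all at a limma adjusted p under 0.05, and -0.37 for *Lif* (adjusted p = 0.0546). For *Socs3* it was 0.04 and for *Jak1* it was 0.01. In this test 18.8% of all genes had an adjusted p under 0.05. *Hif1a* itself differed in the opposite direction, by 0.52 (SE 0.06). Leaving out 1 replicate moved the log2FC of *Stat3* in cells between -0.24 and 0.23 and that of *Socs3* between -0.16 and 0.36.

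**Figure D4:**
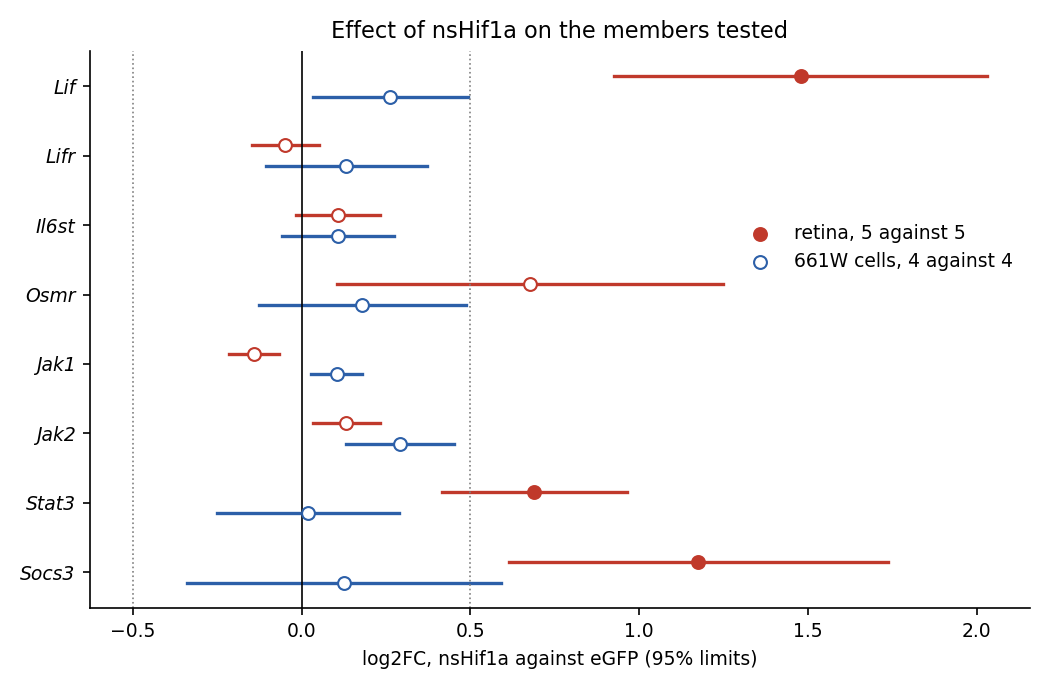
The log2FC of *nsHif1a* against eGFP with 95% limits for the 8 tested genes, in the retina (red, 5 against 5 libraries) and in 661W cells (blue, 4 against 4); filled points were called and dotted lines mark the fold change threshold. *Lif*, *Stat3* and *Socs3* were called in the retina, and no gene was called in the cells.

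Whether the effect differed between retina and cells was tested directly, as an interaction in 1 fit of the 18 libraries. The effect was larger in the retina by 1.22 on the log2 scale for *Lif* (SE 0.28, 95% limits 0.64 to 1.80, limma adjusted p = 0.0274) and by 0.76 for *Stat3* (SE 0.19, 95% limits 0.36 to 1.15, limma adjusted p = 0.0412). These were 2 of 8 tested members, whereas 0.419% of 20999 genes were called with a larger effect in the retina and 1.24% in either direction. For *Socs3* the difference was 1.15 (SE 0.37, 95% limits 0.38 to 1.92), and its limma adjusted p of 0.108 missed the threshold. For *Osmr* it was 0.57 (95% limits -0.09 to 1.22, limma adjusted p = 0.377). *Jak1*, which was lower with *nsHif1a* in the retina and higher in the cells, differed by -0.24 (SE 0.04, limma adjusted p = 0.0071), a size below the fold change threshold, and 2.33% of all genes passed the p threshold alone. For *Lifr*, *Il6st* and *Jak2* the difference was -0.12, 0.05 and -0.13.

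The calls of this difference depended on single libraries. *Lif* was not called without AAV::eGFP library 3 (limma adjusted p = 0.0505), AAV::eGFP library 4 (0.0631) or AAV::*nsHif1a* library 3 (0.0551). The adjusted p of *Stat3* was above 0.05 in 12 of 18 omissions, up to 0.0809 without 661W eGFP replicate 1. It stayed below 0.05 without 661W eGFP replicate 3 or 4, 661W *nsHif1a* replicate 1 or 2, AAV::eGFP library 2 or AAV::*nsHif1a* library 1. *Socs3* was called without 661W eGFP replicate 3 (0.0336), 661W *nsHif1a* replicate 1 (0.0431) or 661W *nsHif1a* replicate 2 (0.0458). Replicate number was taken as a pairing of the cell libraries. This was not told apart from the likeness of replicates 1 and 2 and of replicates 3 and 4. With this pairing as a block in the cells alone, an alternative chosen after the data were seen, *Lif*, *Stat3* and *Socs3* were all called (limma adjusted p = 0.0267, 0.0401 and 0.0458). With the *Xist* class as a covariate none was called (0.133, 0.143 and 0.317), while the differences were 1.18, 0.67 and 1.03 on the log2 scale.

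The control levels of the members also differed between the experiments. Of the 8 tested members, 6 were lower and 1 was higher in AAV::eGFP retinas than in eGFP 661W cells, but 81.3% of all genes were called in this comparison of a tissue with a cell line (35.1% lower and 46.1% higher). The log2 difference, retina minus cells, was -3.67 (SE 0.22) for *Lif*, -2.26 (SE 0.23) for *Osmr*, -2.04 (SE 0.28) for *Socs3* and -1.06 (SE 0.13) for *Stat3*. For the kinase genes it was -0.81 (*Jak1*) and -0.64 (*Jak2*). *Lifr* was the member that was higher in the retina, with a log2 difference of 0.74 (SE 0.07), and *Il6st* differed by -0.25, within the fold change threshold. The control cells held *Jak1* at 27.5 ± 0.334 RPKM and *Stat3* at 20.2 ± 1.23 RPKM (SD, n = 4), with ranges apart. *Lif* at 3.94 ± 0.512 RPKM and *Lifr* at 3.80 ± 0.123 RPKM (SD, n = 4) had overlapping ranges in these cells, so that the ligand and its receptor chain could not be ordered there.

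The other genes of the pathway were counted by list. Of all genes tested, 1.08% were called higher in the retina and 1.21% in the cells, which is the share beside each count below. Of 9 other ligands and soluble partners of the family, 3 passed the filter in the retina and 0 were called. In the cells 4 passed and *Il6*, which encodes interleukin-6, was called higher. It was at 7.63 to 9.23 CPM with eGFP and at 15.03 to 25.99 CPM with *nsHif1a*, a log2FC of 1.27 (SE 0.20, limma adjusted p = 0.0143). Without eGFP replicate 1 or 2 the adjusted p of *Il6* was 0.0552 and 0.0529. Its effect in replicates 3 and 4 minus that in replicates 1 and 2 was -0.87 on the log2 scale (limma adjusted p = 9.2e-04). In the retina *Il6* had at most 2 counts in any library and was not tested. Of 6 other receptors of the family, 3 were tested in the retina and 4 in the cells, and 0 were called in either.

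Among 8 other Janus kinase and STAT genes, *Jak3* and *Stat6* were called higher in the retina, 2 of 7 tested. *Jak3*, a kinase of lymphoid cytokine receptors, was at 3.90 to 12.3 CPM with AAV::eGFP and at 9.60 to 18.02 CPM with AAV::*nsHif1a*, a log2FC of 0.91 (SE 0.23, limma adjusted p = 0.0385), and the groups overlapped. Its adjusted p was above the threshold without AAV::eGFP library 3 (0.0809), 4 (0.124) or 5 (0.0894). The same held without AAV::*nsHif1a* library 2 (0.0953), 3 (0.0673) or 5 (0.0616), and in edgeR (0.0985). It was also above the threshold without sample quality weights (0.0642), without the filter on low counts (0.0542) and with the replicate number as a block (0.109). *Stat6*, which acts in interleukin-4 signaling, was at 12.2 to 13.3 CPM and at 13.5 to 22.97 CPM without overlap, a log2FC of 0.57 (SE 0.11, limma adjusted p = 0.0133).

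In the cells *Stat2*, which acts in interferon signaling, was called higher. It was at 260 to 288 CPM with eGFP and at 328 to 484 CPM with *nsHif1a* without overlap, a log2FC of 0.56 (SE 0.12, limma adjusted p = 0.0426). With the replicate pairing as a block its adjusted p was 0.126, and in edgeR 0.0638. Without sample quality weights it was 0.0729, and without the filter on low counts 0.0516. Without eGFP replicate 1, 2 or 4 the adjusted p was 0.0998, 0.104 and 0.0535. Without *nsHif1a* replicate 1 or 2 the log2FC fell below the threshold, to 0.31 in both cases. The effect in replicates 3 and 4 minus that in replicates 1 and 2 was -0.61 on the log2 scale.

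Of 15 inhibitors of JAK-STAT signaling other than *Socs3* (SOCS, PIAS and phosphatase genes), 0 of 15 tested in the retina and 0 of 14 in the cells were called. Their median log2FC was 0.06 in the retina and -0.04 in the cells. *Ptprt*, a receptor-type phosphatase, had 0 to 2 counts in the eGFP cells and 3 to 10 in the *nsHif1a* cells, where it did not pass the filter, and 482 to 685 counts in the retina, where its log2FC was -0.18 (SE 0.06, limma adjusted p = 0.0989). It entered the joint fit through its retinal counts. Its interaction term passed the thresholds there (limma adjusted p = 0.0274), as did 0.819% of all genes in this direction, but the term rests on cell counts at or near the floor and is not read as a difference in response. It was above 0.05 with the replicate block (0.0769) and without 661W eGFP replicate 3 (0.068) or 4 (0.071).

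Of 24 genes known as STAT3 targets, a list that includes *Stat3*, *Socs3* and *Osmr*, 22 were higher in the AAV::*nsHif1a* retina, with a median log2FC of 0.36. In this list 5 genes were called higher, whereas 1.08% of all tested genes were. Besides *Stat3* and *Socs3* these were *Junb*, *Cebpd* and *Bcl3*. *Junb*, an AP-1 subunit, was at 14.7 to 27.3 CPM with AAV::eGFP and at 31.3 to 58.6 CPM with AAV::*nsHif1a*, a log2FC of 1.05 (SE 0.16, limma adjusted p = 0.0031). The groups of *Junb* did not overlap, and its interaction term was 1.13 (SE 0.18, limma adjusted p = 0.0037). *Cebpd*, a transcription factor of the acute phase response, was at 8.64 to 22.7 CPM and at 20.4 to 76.3 CPM, a log2FC of 1.67 (SE 0.35, limma adjusted p = 0.0173). *Bcl3*, an IκB family coactivator, was at 1.42 to 3.01 CPM and at 2.85 to 13.2 CPM, a log2FC of 1.67 (SE 0.41, limma adjusted p = 0.0333). The call of *Bcl3* was lost without AAV::eGFP library 1 (0.0593), 3 (0.0796), 4 (0.0782) or 5 (0.0725) and without AAV::*nsHif1a* library 2 (0.0676). It was also lost without sample quality weights (0.0565) and without the filter on low counts (0.0540).

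In the cells 11 of the 21 tested targets were higher, the median log2FC was 0.02, and *Nfil3*, a repressor of the bZIP family, was called. It was at 15.1 to 17.5 CPM with eGFP and at 21.8 to 27.1 CPM with *nsHif1a*, a log2FC of 0.56 (SE 0.08, limma adjusted p = 0.011). Without *nsHif1a* replicate 1 or 2 its log2FC was 0.47 and 0.49, and with the replicate pairing as a block its adjusted p was 0.065. In the retina *Nfil3* was also higher in every AAV::*nsHif1a* library, with a log2FC of 0.30 (SE 0.07, limma adjusted p = 0.0346) that lay below the fold change threshold.

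Of 16 glial and trophic genes of the injured retina, all 14 that were tested in the retina had a positive log2FC, with a median of 0.38, and *Fgf2* and *Edn2* were called. *Fgf2* encodes a growth factor that protects photoreceptors. It was at 17.7 to 21.98 CPM with AAV::eGFP and at 37.3 to 135 CPM with AAV::*nsHif1a*, a log2FC of 1.87 (SE 0.27, limma adjusted p = 0.0022). *Edn2*, an endothelin that stressed photoreceptors are known to release, was at 6.78 to 18.7 CPM and at 22.5 to 55.7 CPM, a log2FC of 1.92 (SE 0.30, limma adjusted p = 0.0033). The groups did not overlap for either gene. *Gfap*, the intermediate filament of reactive glia, was at 26.5 to 76.1 CPM and at 47.2 to 134 CPM, a log2FC of 0.73 (SE 0.28) that missed the threshold (limma adjusted p = 0.144). In the cells 0 of the 11 tested genes of this list were called, and *Edn2* had 0 counts in all 8 libraries. With the *Xist* class as a covariate, *Junb* and *Fgf2* were called in the retina, whereas *Jak3*, *Stat6*, *Bcl3*, *Cebpd* and *Edn2* were not, at limma adjusted p-values of 0.430, 0.0718, 0.153, 0.0617 and 0.114. Of the latter, *Stat6*, *Bcl3* and *Cebpd* had a log2FC of 0.58, 1.75 and 2.03 in this fit, at or above the values without the covariate, while that of *Jak3* was 0.45 and that of *Edn2* was 1.26, both smaller. In the 7 libraries with *Xist* alone *Junb* was called (limma adjusted p = 0.0405), and *Fgf2* was not (0.0698), at a log2FC of 1.88.

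**Figure D5:**
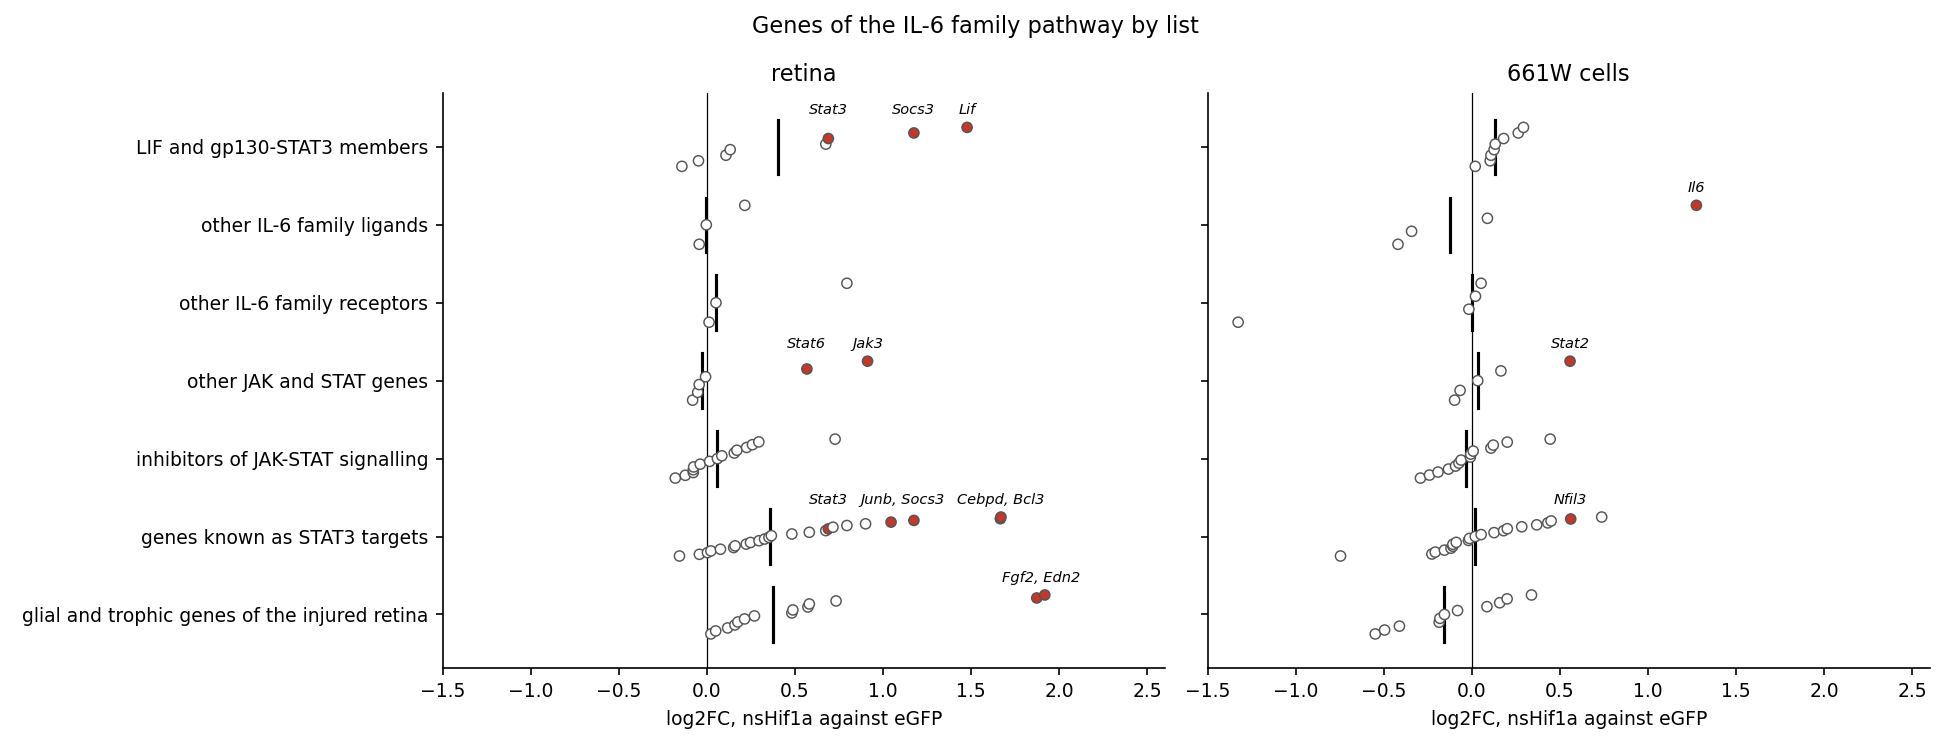
The log2FC of the tested genes of the 9 members and 6 further lists, without 1 gene that is not reported here, in the retina (left) and in 661W cells (right); filled points were called and are named, and vertical bars are list medians. In the retina the medians of the STAT3 targets (0.36) and of the glial and trophic genes (0.38) lay above 0, and in the cells the medians were 0.02 and -0.16.

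Genes with a pattern like that of the called members were ranked by the root mean square (RMS) difference of their centered log2 CPM over the 10 retinal libraries. This measure uses the same libraries as the comparison above and includes the difference between the groups. The gene closest to *Lif* was *Tnfsf9*, at an RMS difference of 0.227, followed by *Egln1* (0.269), *Fosl2* (0.298), *Slc16a3* (0.299) and *Spidr* (0.300). *Egln1* encodes a prolyl hydroxylase that acts on HIF proteins, and *Slc16a3* encodes a lactate transporter. Closest to *Socs3* were *Rnase4* (0.231), *Spidr* (0.265), *Cryzl2* (0.300), *Gadd45g* (0.300) and *Prph* (0.303). Closest to *Stat3* were *Ankrd37* (0.121), *Plxnd1* (0.132), *Gm4211* (0.137), *Ddit4* (0.152) and *Ufsp1* (0.154). *Spidr* was on the lists of both *Lif* and *Socs3*, and none of the 3 members was on the list of another.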

How the data were processed

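Retinal and 661W libraries were stranded and paired-end. Alignment to GRCm39 (primary assembly) was done by the authors in Rsubread, and featureCounts then assigned reads to genes of gencode M36 (basic) by strand. The values deposited are these whole-number counts, not normalized. Because strand was used, antisense genes are counted apart, whereas reads shared by similar genes can be lost. Here genes with low counts were dropped by filterByExpr at a minimum count of 10, TMM factors were computed in edgeR 4.0.16, and voomWithQualityWeights values were fitted in limma 3.58.1 under R 4.3.3, as in the study's methods but in other versions. Each experiment was fitted alone, and the interaction and the comparison of controls over all 18 libraries. CPM were scaled within each experiment. Centered log2 CPM used a prior count of 2. Depth was 12898220 to 17809585 counts per library, and 3 counts, 0.168 to 0.233 CPM, covers counting error only. Names, exon lengths and starts came from gencode M39, which matched 78168 of 78239 identifiers.

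The members, lists and tests were chosen with earlier results of these data known. Named were all 9 members, *Hif1a*, every gene of the pathway lists called in either experiment or in the interaction except 1 that is not reported here, and the 5 genes most like *Lif*, *Socs3* and *Stat3*. *Gfap*, and *Nfil3* in the retina, were named after their values were seen. Groups and replicate numbers came from the labels. Same-numbered libraries deviated together in the cells (correlations 0.227 to 0.269) and not in the retina (-0.148 to 0.138). The cell correlations were taken as pairing because every one was above 0.1. Correlations between libraries of different numbers were not computed, so this pairing was not told apart from the replicate sets of the cells. Alternatives comprised DESeq2 1.42.0, the quasi-likelihood test of edgeR, other weights, size factors, filters and thresholds, the pairing, the *Xist* class, the γ-crystallin level, the replicate sets of the cells and the omission of each library. Procedures were tested on simulated counts, where a minimum number of recovered changes was required for the retina and the cells but not for the interaction.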

Additional observations from a re-analysis of the deposited data

Results flagged for a closer look

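By the adjusted p of the interaction test alone, the effect of *nsHif1a* differed between retina and 661W cells for 3 members, and for 2.33% of 20999 genes. The log2FC in the retina minus that in the cells was 1.22 for *Lif* (limma adjusted p = 0.0274), 0.76 for *Stat3* (0.0412) and -0.24 for *Jak1* (0.0071). The size for *Jak1* lay below the fold change threshold. When 1 library was left out, the call was lost in 3 of 18 omissions for *Lif* and in 12 of 18 for *Stat3*. *Lif* was higher in 5 of 5 AAV::*nsHif1a* retinas than in any control. *Jak1* was lower in 5 of 5 AAV::*nsHif1a* retinas and higher in 4 of 4 *nsHif1a* cell libraries than in any control of the same experiment. Tissue, promoter, vector and time after delivery all differed between the experiments and cannot be told apart. No library stood apart from its group by Dixon's test in the 36 combinations of member and group tested, where chance alone gives about 1 in 20.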

How the results depend on the processing

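In the retina 3 members were called, and 2 to 4 when 1 library was left out. None was called with the *Xist* class as a covariate (0 members) or in the libraries with *Xist* alone (0 members), where AAV::eGFP had 2 libraries. With the replicate number as a block 4 members were called, *Osmr* at a log2FC of 0.71 (limma adjusted p = 0.0437) being added, without a log2FC threshold *Jak1* was added, and at a minimum count of 30 *Lif* was filtered out. In the cells 0 members were called under every alternative, the pairing block included. There the log2FC of *Stat3* was -0.0042 without sample quality weights, -0.0096 without the filter on low counts, -0.022 with the replicate block and -0.0025 with the replicate sets as a covariate. When 1 cell library was left out it ranged from -0.236 to 0.232, that of *Socs3* from -0.155 to 0.356, *Lifr* from -0.0888 to 0.323, *Il6st* from -0.033 to 0.225 and *Osmr* from -0.0727 to 0.386. In these omissions the limma adjusted p fell as low as 4.6e-04 for *Jak2*, 0.0054 for *Lifr*, 0.0082 for *Il6st* and 0.0124 for *Osmr*. For *Jak1*, *Stat3* and *Lif* the lowest was 0.0255, 0.033 and 0.0404. No call followed, because every log2FC lay within the fold change threshold. In the interaction 1 member, *Lif*, was called with edgeR or without sample quality weights, 0 with the *Xist* class as a covariate, 2 (*Stat3* and *Socs3*, with *Lif* at 0.0689) with the replicate block in both experiments, and 0 to 3 when 1 library was left out. The interaction ranged over these omissions from -0.358 to 0.034 for *Lifr* and from -0.100 to 0.140 for *Il6st*. In the comparison of controls 7 members were called under every alternative. Except where a setting removed genes or libraries, the cause was not tested. Of 1011 values of single genes under an alternative, 901 kept their direction and their side of the threshold. These include the comparison of controls, in which every value kept both, and genes that were not called. Depth limits *Cntf* and, at 14 to 63 counts in the retina, *Lif*.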

Other observations

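*Stat2* differed among retinas of the same group, a pattern chosen after its values were seen. It was between 43.3 and 92.2 CPM with AAV::eGFP (median 48.2 CPM) and between 48.4 and 82.0 CPM with AAV::*nsHif1a* (median 52.4 CPM). The log2FC was -0.05 (SE 0.22, limma adjusted p = 0.917), so the spread within groups exceeded the difference between them.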
